A study of Homo sapiens with 12 samples.

Results

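This account covers 10 genes of the calcineurin pathway among the 28901 named genes of the count table. They are the regulators of calcineurin RCAN1, RCAN2 and RCAN3, the catalytic subunit PPP3CA, the transcription factors NFATC1, NFATC2, NFATC3 and NFATC4, and the MEF2 factors MEF2A and MEF2C. The set was selected on the counts of RCAN1 and MEF2A, which responded differently to lipopolysaccharide (LPS) in control cells and in cells with a knockdown of the long intergenic non-coding RNA linc-ADAIN. The values of those 2 genes are therefore given as a description without any test. The other 8 genes were tested.

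Calcineurin is a phosphatase switched on by calcium and calmodulin. It removes phosphates from the NFATC proteins, which then enter the nucleus and often bind DNA beside AP-1, and its signal also raises the activity of MEF2 factors. RCAN1 binds calcineurin and inhibits it, and a short form of RCAN1 is itself transcribed in response to NFAT, which makes RCAN1 mRNA a widely used readout of the pathway and a feedback on it. In the adipose lineage, calcineurin signalling is known as a brake on early adipogenesis.

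The cells were ASC52telo, an adipose stromal line from 1 source that was immortalised with hTERT. All cells carried a lentiviral shRNA vector with the fluorescent marker ZsGreen and were sorted for that marker. The scramble control expressed a scrambled hairpin, and the knockdown (KD) expressed 1 hairpin against linc-ADAIN. All 4 groups were cultured for 14 days, first in a differentiation medium with insulin, dexamethasone, isobutylmethylxanthine and rosiglitazone and then in a maintenance medium that still held insulin and dexamethasone, and 2 of the groups received LPS at 100 ng/mL for 4 h. Each group had 3 polyA RNA libraries from a single experiment, so that all spreads and p-values below measure variation within that experiment, and 3 libraries against 3 cannot give an exact two-sided permutation p below 0.1.

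Library totals ranged from 28.4 to 53.8 M counts, with group medians of 53.5 M for scramble, 40.8 M for scramble with LPS, 38.5 M for KD and 34.8 M for KD with LPS. The paper reports by qPCR that its hairpin lowered linc-ADAIN in hTERT adipocytes. How far it did so in these libraries is not analysed here, so the KD groups rest on their labels in this account. Of 6 adipocyte markers, ADIPOQ, PLIN1, FABP4 and CIDEC were abundant, while LPL (0 to 82 counts) and LEP (0 to 21 counts) were at or near 0. Levels are given as CPM, the counts of a gene scaled to a common library total. The summed adipocyte marker level was 2722 to 3847 CPM in scramble and 3245 to 3704 CPM with LPS, against 525 to 1603 CPM in KD and 437 to 1051 CPM in KD with LPS. The 5 stromal markers summed to 4675 to 5527 CPM in scramble, 4443 to 5049 CPM with LPS, 6106 to 6883 CPM in KD and 7094 to 7936 CPM in KD with LPS, with DLK1 at 0 in all libraries and THY1 and PDGFRB lower and DCN higher in KD. The leukocyte list, which rested on CD68, summed to 52.7 to 69.2 CPM in the control groups and 26.2 to 36.6 CPM in the KD groups, the endothelial list to 10.2 to 19.0 CPM and 3.35 to 9.21 CPM, and the muscle list stayed under 1 CPM. The adipocyte and stromal sums differed between KD and control cells both with and without LPS, and their part in the KD effects below was not tested. In bulk RNA, fewer cells of a type and less RNA per cell cannot be told apart.

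RCAN1 was the most abundant of the 10 genes per transcript length in each of the groups, and KD with LPS held its highest level. The 3 scramble libraries gave 174, 175 and 139 CPM. With LPS the control libraries gave 145, 129 and 151 CPM, and this range overlapped that of untreated control. In KD the level was 239, 247 and 207 CPM, above both control groups in every library. In KD with LPS it reached 458, 439 and 485 CPM, above all other libraries. Scaled to transcript length, the group means were 65.0 ± 8.1, 56.5 ± 4.5, 92.2 ± 8.4 and 184 ± 9 CPM per kb (SD, n = 3).

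As fitted log2 fold changes, RCAN1 differed by 0.51 (SE 0.10) between KD and scramble without LPS and by 1.71 (SE 0.08) between the same cells with LPS, a 3.27-fold higher level. LPS gave -0.19 (SE 0.10) in scramble and 1.01 (SE 0.08) in KD. The difference between these LPS effects was 1.21 (SE 0.13) on the log2 scale. These values chose the gene and are given without a p-value.

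**Figure D1:**
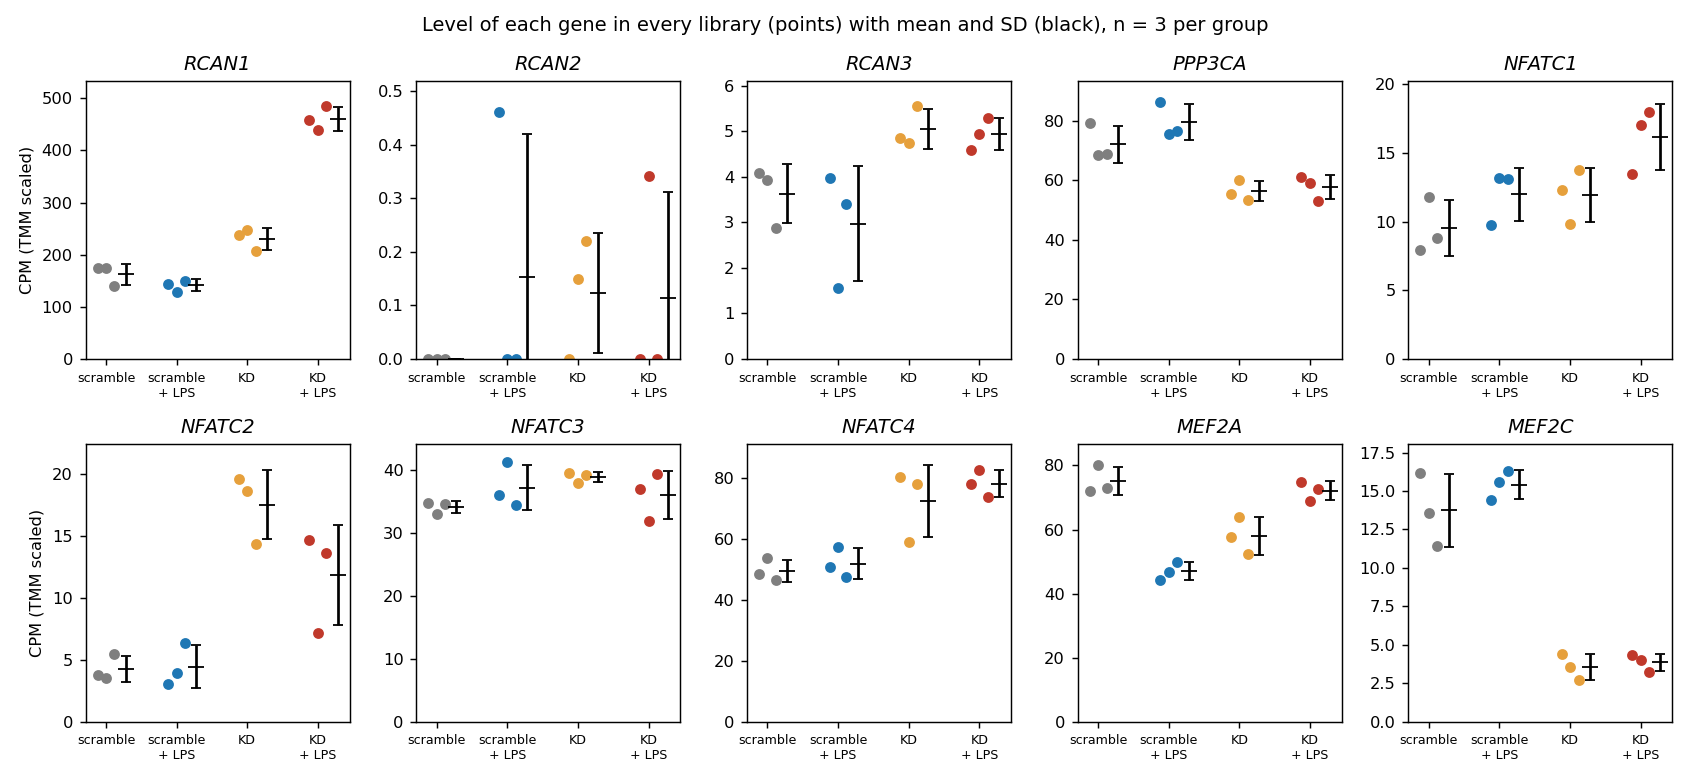
Level of each of the 10 genes in CPM (vertical axis, starting at 0) in the 4 groups (horizontal axis). Coloured points are the 3 libraries of a group and the black bar gives their mean and SD. RCAN1 stood at 439 to 485 CPM in KD with LPS and at or below 247 CPM in all other libraries, NFATC2 was higher and MEF2C lower in both KD groups, and MEF2A was lowest in scramble with LPS.

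RCAN1 lies on the minus strand of chromosome 21 (chr21:34513142-34615113, GRCh38, GENCODE release 44, 14 transcripts). RefSeq places 6 start sites in the gene. Start 1 is that of the canonical transcript. Start 4 lies 88291 bases downstream in intron 1 of that transcript, in the region from which the short, NFAT-responsive form is known to be transcribed. The windows from 250 bases before to 50 bases after these starts are shown because they hold very different numbers of NFAT and AP-1 letters. They are given 5′ to 3′ on the minus strand, from RefSeq on GRCh38.p14, with matches to the NFAT core GGAAA and the AP-1 motif TGANTCA, on either strand, in capitals.
RCAN1 start 1, chr21:34615064-34615363: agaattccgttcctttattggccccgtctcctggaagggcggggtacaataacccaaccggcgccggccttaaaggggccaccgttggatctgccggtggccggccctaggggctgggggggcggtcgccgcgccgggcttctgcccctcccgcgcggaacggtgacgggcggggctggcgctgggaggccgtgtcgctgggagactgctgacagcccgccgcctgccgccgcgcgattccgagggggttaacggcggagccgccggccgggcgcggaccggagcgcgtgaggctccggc
RCAN1 start 4, chr21:34526773-34527072: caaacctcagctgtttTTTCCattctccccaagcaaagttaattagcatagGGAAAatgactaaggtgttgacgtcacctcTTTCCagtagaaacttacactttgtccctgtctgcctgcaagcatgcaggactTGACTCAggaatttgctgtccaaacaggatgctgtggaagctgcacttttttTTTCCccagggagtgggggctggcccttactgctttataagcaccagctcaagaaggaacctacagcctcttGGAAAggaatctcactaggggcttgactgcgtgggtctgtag

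The window of start 1 had a GC content of 74.0% and held neither motif. The window of start 4 had a GC content of 48.0% and held 5 GGAAA matches, whose leftmost bases lay at -234, -199, -169, -64 and 8 from the start, and 1 TGANTCA match at -116, with no overlap between the 2 motifs. Of 35116 RefSeq windows of 300 bases, 61.2% held at least 1 GGAAA and 0.74% held 5 or more, and 7.71% held TGANTCA. Starts 2 and 3 held neither motif, start 5 held 1 of each and start 6 held 1 GGAAA. A letter match is a description and not a binding site. The deposited counts are summed over each gene, so the reads from these starts cannot be told apart, and a read-through gene on the same strand (ENSG00000288711, chr21:34511122-34614913) shares sequence with RCAN1.

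**Figure D2:**
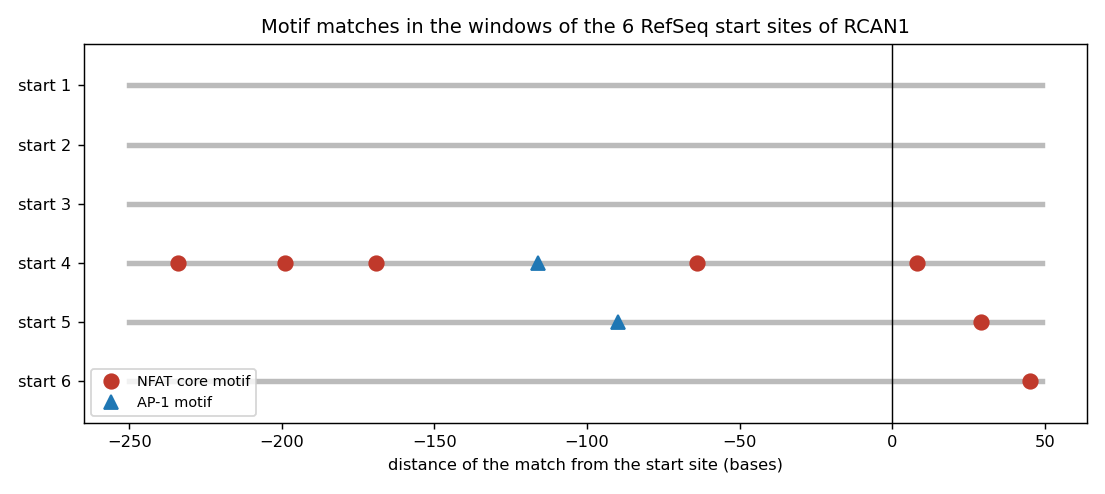
Matches to the NFAT core (red circles) and AP-1 (blue triangles) motifs in the windows of the 6 RCAN1 start sites, by distance from the start site in bases (horizontal axis). Grey bars span the 300 bases searched, and start 4 holds 5 NFAT core matches and 1 AP-1 match.

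The other regulators of calcineurin were scarce. RCAN3, a paralogue of RCAN1 that also binds calcineurin, was at 4.09, 3.93 and 2.88 CPM in scramble, 3.97, 1.56 and 3.41 CPM in scramble with LPS, 4.86, 4.75 and 5.56 CPM in KD and 4.59, 4.95 and 5.28 CPM in KD with LPS. All KD libraries lay above all control libraries, yet the differences did not pass the test. The log2 fold change was 0.48 (SE 0.22, edgeR adjusted p = 0.13) without LPS and 0.73 (SE 0.32, edgeR adjusted p = 0.12) with LPS. RCAN2, the remaining paralogue, was counted at 0 in 8 of 12 libraries and at 18 (scramble with LPS), 8 and 9 (KD) and 16 (KD with LPS) counts in the others. A count of 0 allows up to 3 counts, so no fold change is given for RCAN2, which passed no test. RCAN1 made up 99.2% of the summed RCAN level per length in scramble and 99.6% in KD with LPS. Whether reads from RCAN3 and its antisense partner RCAN3AS were kept apart was not checked, and strand use in counting was not stated.

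PPP3CA encodes the alpha isoform of the catalytic subunit of calcineurin, the protein that RCAN1 inhibits. It fell in KD with and without LPS. Its level was 79.3, 68.4 and 68.8 CPM in scramble and 55.4, 60.2 and 53.5 CPM in KD. With LPS it was 86.4, 75.6 and 76.5 CPM in control cells and 61.1, 59.2 and 53.2 CPM in KD. The control and KD libraries did not overlap in either comparison.

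The log2 fold change of PPP3CA in KD was -0.35 (SE 0.09, edgeR adjusted p = 0.0098) without LPS and -0.45 (SE 0.09, edgeR adjusted p = 0.0024) with LPS. The call without LPS was lost when scramble replicate 1 was left out (log2 fold change -0.28, edgeR adjusted p = 0.053) and when only library totals were used for scaling (-0.25, edgeR adjusted p = 0.061). The ratio of RCAN1 to PPP3CA level per length was 4.28 ± 0.52 in scramble, 3.38 ± 0.30 with LPS, 7.75 ± 0.42 in KD and 15.2 ± 1.8 in KD with LPS (SD, n = 3). This ratio combines a gene chosen for its pattern with a tested gene and is a description. Summed over the catalytic subunit genes PPP3CA, PPP3CB and PPP3CC, the level per length was 39.2 ± 1.5 CPM per kb in scramble and 43.8 ± 1.4 with LPS. The same sum was 33.1 ± 1.5 in KD and 43.4 ± 0.4 in KD with LPS (SD, n = 3). No RefSeq promoter window matched PPP3CA.

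Among the NFATC genes, NFATC2 and NFATC4 rose in KD with and without LPS. NFATC2, the founding NFAT factor of T cells, stood at 3.76, 3.53 and 5.49 CPM in scramble and at 19.6, 18.6 and 14.4 CPM in KD. With LPS it stood at 3.02, 3.95 and 6.39 CPM in control cells and at 14.7, 7.21 and 13.6 CPM in KD. Even the lowest KD library, replicate 2 with LPS, was above the highest control library. The log2 fold change was 2.04 (SE 0.19, edgeR adjusted p = 1.1e-05) without LPS, a 4.12-fold rise, and 1.41 (SE 0.30, edgeR adjusted p = 0.0032) with LPS.

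NFATC4 was the most abundant NFATC gene per length in all 4 groups. It measured 48.6, 53.5 and 46.4 CPM in scramble, 50.8, 57.2 and 47.4 CPM in scramble with LPS, 80.2, 58.8 and 77.9 CPM in KD and 77.9, 82.6 and 73.7 CPM in KD with LPS. The lowest KD library, replicate 2 without LPS, lay close above the control range. NFATC4 rose by 0.55 on the log2 scale (SE 0.12, edgeR adjusted p = 0.0043) without LPS and by 0.60 (SE 0.09, edgeR adjusted p = 0.00030) with LPS.

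NFATC1 and NFATC3 did not pass the test. NFATC1, known for autoregulation by NFAT and for its role in osteoclasts and heart valves, was at 7.94, 11.8 and 8.83 CPM in scramble, 9.75, 13.2 and 13.1 CPM with LPS, 12.3, 9.85 and 13.7 CPM in KD and 13.5, 17.0 and 18.0 CPM in KD with LPS. Its KD effect was 0.33 (SE 0.18, 95% interval -0.068 to 0.73, edgeR adjusted p = 0.21) without LPS and 0.44 (SE 0.16, 95% interval 0.087 to 0.79, edgeR adjusted p = 0.064) with LPS. The latter passed without replicate 1 of KD with LPS (0.56, edgeR adjusted p = 0.030). NFATC3, a broadly expressed NFAT factor, spanned 33.1 to 34.9 CPM in scramble, 34.4 to 41.3 CPM with LPS, 38.0 to 39.6 CPM in KD and 31.9 to 39.3 CPM in KD with LPS. Its KD effects were 0.19 (95% interval 0.010 to 0.37, edgeR adjusted p = 0.11) and -0.04 (95% interval -0.28 to 0.20, edgeR adjusted p = 0.86).

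Summed over the 4 NFATC genes per length, the level was 18.3 ± 0.9 CPM per kb in scramble, 19.8 ± 1.7 with LPS, 26.1 ± 2.9 in KD and 27.0 ± 0.2 in KD with LPS (SD, n = 3). NFATC4 supplied 54.9% to 60.7% of this sum in the group means. NFATC2 supplied 3.11% ± 0.88 in scramble and 9.02% ± 1.93 in KD, and 3.01% ± 1.28 and 5.83% ± 1.98 with LPS.

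MEF2C had the steepest fall in KD among the 10 genes. It encodes a MEF2 factor best known from muscle, heart and neurons. Its level was 16.2, 13.6 and 11.5 CPM in scramble and 4.43, 3.53 and 2.72 CPM in KD. With LPS it was 14.4, 15.6 and 16.3 CPM in control cells and 4.36, 3.99 and 3.25 CPM in KD. The groups were far apart, and the log2 fold change was -1.95 (SE 0.20, edgeR adjusted p = 2.3e-05) without LPS and -1.98 (SE 0.17, edgeR adjusted p = 1.3e-06) with LPS, a 3.86-fold and a 3.95-fold lower level. The antisense genes MEF2C-AS1 and MEF2C-AS2 overlap MEF2C, and whether their reads were kept apart from those of MEF2C was not checked. The muscle markers MYOD1 and ACTN2 were at 0 in all libraries, and MYOG, DES and MYH1 had at most 16, 17 and 4 counts in any library.

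MEF2A, the broadly expressed paralogue, moved with LPS in opposite directions in the control and in KD. It was at 72.1, 80.1 and 72.9 CPM in scramble and at 44.2, 46.7 and 49.9 CPM with LPS. In KD it was at 57.6, 64.1 and 52.3 CPM, and with LPS at 74.8, 69.0 and 72.5 CPM. Each LPS range lay apart from its untreated range, below it in control cells and above it in KD. Ordered by level, scramble and KD with LPS overlapped at the top, KD came next and scramble with LPS was lowest. The fitted log2 fold change with LPS was -0.67 (SE 0.08) in scramble and 0.32 (SE 0.09) in KD, which differed by 1.00 (SE 0.12). Between KD and scramble, the values were -0.37 (SE 0.09) without LPS and 0.63 (SE 0.09) with LPS. As for RCAN1, these values chose the gene and have no p-value.

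MEF2A lies on the plus strand of chromosome 15 (chr15:99565417-99716488, GRCh38, 18 transcripts) with 3 RefSeq start sites. The window of start 2, the canonical one, is shown because MEF2 factors bind a known AT-rich motif and this window holds it once, at -23 from the start, in capitals.
MEF2A start 2, chr15:99565734-99566033: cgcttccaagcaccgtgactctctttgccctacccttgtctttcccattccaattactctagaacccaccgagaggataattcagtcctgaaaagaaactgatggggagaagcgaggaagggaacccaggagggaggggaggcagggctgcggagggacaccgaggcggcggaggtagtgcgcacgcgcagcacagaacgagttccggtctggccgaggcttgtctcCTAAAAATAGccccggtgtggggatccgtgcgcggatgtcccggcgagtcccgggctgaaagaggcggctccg

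The MEF2 motif was found in 2.99% of the 35116 windows. The same MEF2A window held 1 GGAAA at -210 that does not overlap it, and the windows of MEF2A starts 1 and 3 held none of the 3 motifs. Among the 7 MEF2C windows, 1 held the MEF2 motif.

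The sum of the MEF2 genes per length differed little between scramble (22.7 ± 1.5 CPM per kb), KD (22.8 ± 1.9) and KD with LPS (23.3 ± 1.7), and was 17.1 ± 1.3 in scramble with LPS (SD, n = 3). Its make-up differed between groups. MEF2A supplied 59.3% ± 2.8 in scramble and 45.6% ± 3.8 in KD, and MEF2C 8.29% ± 1.21 and 2.17% ± 0.64. MEF2D, the remaining abundant member, supplied 29.0% ± 1.1 and 44.7% ± 4.1. With LPS, MEF2A supplied 49.3% ± 1.8 in control cells and 55.7% ± 5.5 in KD. MEF2C then supplied 12.4% ± 0.3 and 2.28% ± 0.28, and MEF2D 34.3% ± 3.8 and 36.6% ± 0.3. The sum and the shares include MEF2A, a gene chosen for its pattern, and are a description. MEF2D was 34.8 to 42.8 CPM in scramble and 55.7 to 65.0 CPM in KD, a log2 fold change of 0.63 (SE 0.10, edgeR adjusted p = 0.00057). With LPS the MEF2D level was 29.4 to 40.5 CPM in control cells and 47.3 to 54.2 CPM in KD (log2 fold change 0.55, SE 0.12, edgeR adjusted p = 0.0032).

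Across the 8 tested genes, 4 passed at an edgeR adjusted p under 0.05 in KD without LPS, where 27.2% of 16217 genes did, and the same 4 passed in KD with LPS, where 26.9% of 15981 did. These were NFATC2 and NFATC4, which rose, and PPP3CA and MEF2C, which fell. NFATC2 and MEF2C changed at least 2-fold in both comparisons, against 7.77% and 8.48% of all genes tested. The median absolute log2 fold change over the 8 genes was 0.51 without LPS and 0.53 with LPS, against 0.36 over all genes in both. The medians over the 8 include the fitted value of RCAN2, whose counts are too low for a fold change.

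LPS left the 8 genes without a call. In scramble, edgeR called 0 of 8 (14.3% of 15920 genes were called), DESeq2 called 0, and RCAN2 alone, with counts in 1 of those 6 libraries, had an unadjusted p under 0.05. In KD, edgeR and DESeq2 again called 0 of 8 (11.3% of 16169 genes by edgeR), and 2 had an unadjusted p under 0.05. These were NFATC1, at 0.44 (95% interval 0.085 to 0.80, edgeR adjusted p = 0.12), and NFATC2, at -0.56 (95% interval -1.04 to -0.088, edgeR adjusted p = 0.13). For NFATC4 and PPP3CA the intervals of the LPS effect were within -0.15 to 0.36 log2 units in both kinds of cell. For RCAN3 they were wider, from -0.97 to 0.43 in scramble and -0.48 to 0.43 in KD.

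The test of whether the LPS effect differed between KD and scramble called 0 of the 8 genes by edgeR and 0 by DESeq2, and none had an unadjusted p under 0.05, beside 1.28% of 17173 genes called by edgeR. The estimate was -0.63 for NFATC2 (95% interval -1.45 to 0.19), -0.22 for NFATC3 (-0.51 to 0.064), -0.09 for PPP3CA (-0.36 to 0.17), 0.06 for NFATC4 (-0.27 to 0.39) and -0.03 for MEF2C (-0.59 to 0.54).

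**Figure D3:**
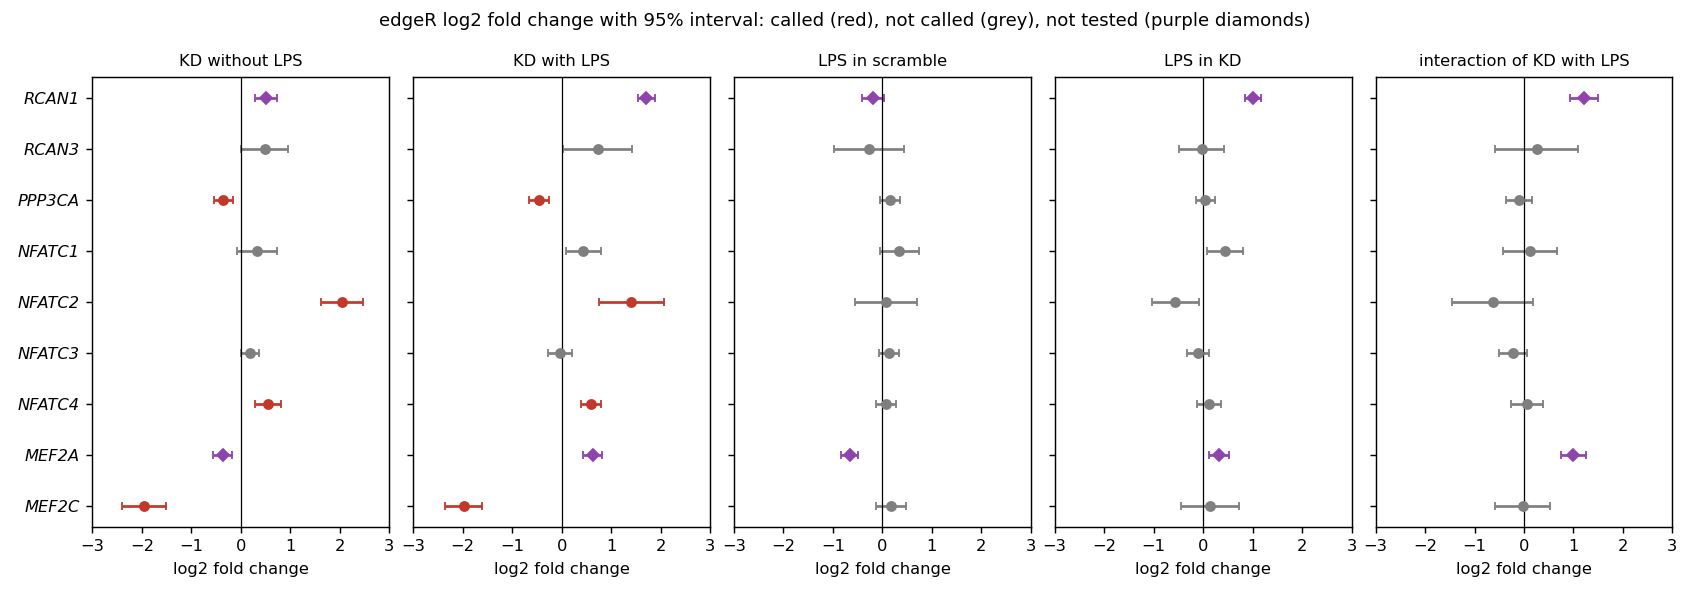
Fitted log2 fold change (horizontal axis) with its 95% interval for 9 of the genes in the 5 comparisons. Red points passed an edgeR adjusted p under 0.05, grey points did not, and purple diamonds mark RCAN1 and MEF2A, which were not tested. NFATC2, NFATC4, PPP3CA and MEF2C keep their direction in KD with and without LPS.

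The rest of the pathway was followed with a list of 52 genes, of which 50 were measured well enough to be tested (PPP3R2 and MYOZ1 were at 0 in all libraries). Of the 50, edgeR called 23 in KD without LPS (12 higher and 11 lower), 20 in KD with LPS (14 higher and 6 lower), 14 with LPS in scramble (4 higher and 10 lower) and 12 with LPS in KD (3 higher and 9 lower), against the shares of all genes given above. Genes with smaller changes named in the next paragraphs, and MEF2D above, were singled out after their values were seen.

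Of the other phosphatase subunits, the regulatory subunit PPP3R1 was lower in KD without LPS (log2 fold change -0.41, SE 0.09, edgeR adjusted p = 0.0057). It was not called in KD with LPS (-0.20, SE 0.09, edgeR adjusted p = 0.12). In scramble, PPP3R1 was lower with LPS (-0.37, SE 0.08, edgeR adjusted p = 0.0078). The gamma catalytic subunit PPP3CC was higher in KD with LPS than in the other groups. It stood at 23.7, 24.0 and 26.8 CPM in scramble, 29.0, 29.3 and 31.2 CPM with LPS, 22.9, 21.3 and 21.0 CPM in KD and 42.3, 39.8 and 44.3 CPM in KD with LPS. Its LPS effect was 0.28 (SE 0.09, edgeR adjusted p = 0.071) in scramble and 0.96 (SE 0.10, edgeR adjusted p = 1.8e-05) in KD, and the difference between the effects was 0.70 (SE 0.13, edgeR adjusted p = 0.011). Per length, PPP3CC supplied 28.9% ± 2.4 of the summed catalytic subunits in scramble and 44.2% ± 2.0 in KD with LPS, while PPP3CA supplied 38.7% ± 1.9 and 28.1% ± 2.2 (SD, n = 3).

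Of 3 calmodulin genes, edgeR called none in KD without LPS (0 with an unadjusted p under 0.05, 0 by DESeq2). It called none in KD with LPS (1 with an unadjusted p under 0.05, 1 by DESeq2). For LPS in scramble, CALM2 was called lower (-0.41, SE 0.08, edgeR adjusted p = 0.0058). For LPS in KD, edgeR called none of them (2 with an unadjusted p under 0.05, 0 by DESeq2). Among inhibitors and anchors, the calcineurin B homologue CHP1 fell without LPS (-0.31, SE 0.09, edgeR adjusted p = 0.019) and with LPS (-0.52, SE 0.09, edgeR adjusted p = 0.00053). That was 1 call among 4 tested genes in each, beside 27.2% and 26.9% of all genes. Of the immunophilins that carry calcineurin-inhibiting drugs, FKBP1A fell in both comparisons (-0.26 and -0.35) and PPIA was not called.

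The kinases and repressors that act on NFAT and MEF2 split. MAPK7, the ERK5 kinase that activates MEF2 factors, fell from 41.1 ± 0.3 CPM in scramble to 16.5 ± 1.7 CPM in KD and from 28.4 ± 1.6 to 14.1 ± 1.2 CPM with LPS (SD, n = 3). The log2 fold changes were -1.31 (SE 0.10, edgeR adjusted p = 2.3e-06) and -1.01 (SE 0.12, edgeR adjusted p = 2.3e-05). HDAC9, a class IIa histone deacetylase that represses MEF2 factors, rose from a low level of 0.63 ± 0.23 CPM to 3.59 ± 0.91 CPM in KD (log2 fold change 2.51, SE 0.37, edgeR adjusted p = 0.00034) and from 1.23, 1.39 and 1.88 CPM to 8.52, 7.55 and 4.02 CPM with LPS (2.16, SE 0.32, edgeR adjusted p = 0.00020). Of the other class IIa genes, HDAC7, at a mean of 118 CPM in scramble, fell in KD without LPS (-0.38, edgeR adjusted p = 0.016). HDAC5 rose in KD with LPS (0.44, edgeR adjusted p = 0.0071). Neither was called in the other KD comparison, and HDAC4 was called in neither. The other MEF2 kinase of the list, MAPK14, rose in KD with LPS (0.28, edgeR adjusted p = 0.047). Among 6 NFAT kinases, GSK3B (-0.39) and DYRK2 (-0.69) fell in KD without LPS. With LPS, DYRK2 fell (-0.89) and DYRK1B rose from 1.79 ± 0.47 to 3.57 ± 0.90 CPM (1.01, SE 0.34, edgeR adjusted p = 0.041). The DYRK1B call was lost without replicate 2 or 3 of scramble with LPS or replicate 2 or 3 of KD with LPS (edgeR adjusted p = 0.054 to 0.19).

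Of 8 genes of store-operated calcium entry and calcium release, edgeR called 5 in KD without LPS and 4 with LPS, beside 27.2% and 26.9% of all genes. Without LPS, the channel genes ORAI1 (0.48), ORAI3 (0.74), ITPR1 (0.43) and ITPR3 (0.82) rose and the calcium sensor STIM1 fell (-0.39). With LPS, ORAI3 (0.42), ITPR1 (0.42) and ITPR3 (0.50) rose and STIM1 fell (-0.56). Of 4 other calcineurin substrates, the CREB coactivator CRTC1 fell without LPS (-0.85) and with LPS (-0.87). The lysosomal regulator TFEB fell without LPS (-1.39, SE 0.43, edgeR adjusted p = 0.031), a call lost without scramble replicate 2, KD replicate 1 or KD replicate 3 (edgeR adjusted p = 0.073 to 0.19).

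Among 11 reported NFAT or MEF2 targets, 7 were called in KD without LPS, 6 of them higher and F3 lower (-0.34), beside 27.2% of all genes. In KD with LPS 5 were called, all higher, beside 26.9%. For LPS in scramble 6 were called (3 higher and 3 lower), beside 14.3%, and for LPS in KD 6 (2 higher and 4 lower), beside 11.3%. The orphan receptor gene NR4A3 rose from 20.5 ± 1.8 CPM in scramble to 118 ± 21 CPM in KD (log2 fold change 2.54, SE 0.13, edgeR adjusted p = 1.1e-07) and from 46.0 ± 4.2 to 309 ± 23 CPM with LPS (2.76, SE 0.09, edgeR adjusted p = 3.6e-10). PTGS2, which encodes cyclooxygenase 2, was 5.82, 7.26 and 7.49 CPM in scramble, 31.3, 36.0 and 21.6 CPM in KD, 31.5, 37.9 and 37.9 CPM in scramble with LPS and 305, 251 and 343 CPM in KD with LPS. It rose with LPS by 2.39 (SE 0.13, edgeR adjusted p = 4.6e-07) in scramble and by 3.34 (SE 0.16, edgeR adjusted p = 3.1e-09) in KD. The difference of 0.96 (SE 0.22, edgeR adjusted p = 0.034) passed without scramble replicate 1, KD replicate 2, KD replicate 3 or replicate 2 of KD with LPS, and missed the threshold without any of the other 8 libraries (edgeR adjusted p = 0.053 to 0.11).

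NR4A1, another orphan receptor gene of the immediate early response, had the opposite difference. It was 29.5 ± 4.8 CPM in scramble, 71.1 ± 9.0 CPM with LPS, 83.3 ± 14.9 CPM in KD and 101 ± 6 CPM in KD with LPS (SD, n = 3). LPS raised it by 1.28 (SE 0.13, edgeR adjusted p = 4.0e-05) in scramble, the value in KD was 0.29 (SE 0.11, edgeR adjusted p = 0.13), and the difference was -0.98 (SE 0.18, edgeR adjusted p = 0.0100). The LPS effect in KD passed without KD replicate 1 (0.40, edgeR adjusted p = 0.047), with no filter beyond 1 count (0.29, edgeR adjusted p = 0.042) and with a replicate block (0.30, edgeR adjusted p = 0.030). KLF6, a zinc finger factor, fell with LPS by 1.12 on the log2 scale in scramble, from 363 ± 23 to 165 ± 17 CPM, and by 0.37 in KD, from 384 ± 7 to 295 ± 8 CPM. The difference for KLF6 was 0.76 (SE 0.11, edgeR adjusted p = 0.0015).

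EGR2, an early growth response factor, rose in KD without LPS (1.19, SE 0.15, edgeR adjusted p = 0.00011) and fell with LPS in KD (-1.45, SE 0.17, edgeR adjusted p = 3.6e-05). Its LPS effect in scramble was -0.47 (SE 0.21, edgeR adjusted p = 0.18). The difference of -0.97 between these effects (SE 0.29, edgeR adjusted p = 0.13) passed with DESeq2 (adjusted p = 0.049) and with no filter beyond 1 count (edgeR adjusted p = 0.032). KLF2 rose in KD without LPS (1.34, SE 0.32, edgeR adjusted p = 0.0079) and with LPS (1.37, SE 0.45, edgeR adjusted p = 0.038), the latter lost in 5 of 6 fits that leave out 1 library, all but that without replicate 1 of KD with LPS (edgeR adjusted p = 0.051 to 0.33). PPP3CC, PTGS2, KLF6 and NR4A1 were the 4 of 50 list genes that edgeR called for a different LPS effect in KD, beside 1.28% of all genes. DESeq2 called 6 of the 50, and edgeR with a replicate block called 5. The list was put together with earlier results of these data known, so that these counts are a description.

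**Figure D4:**
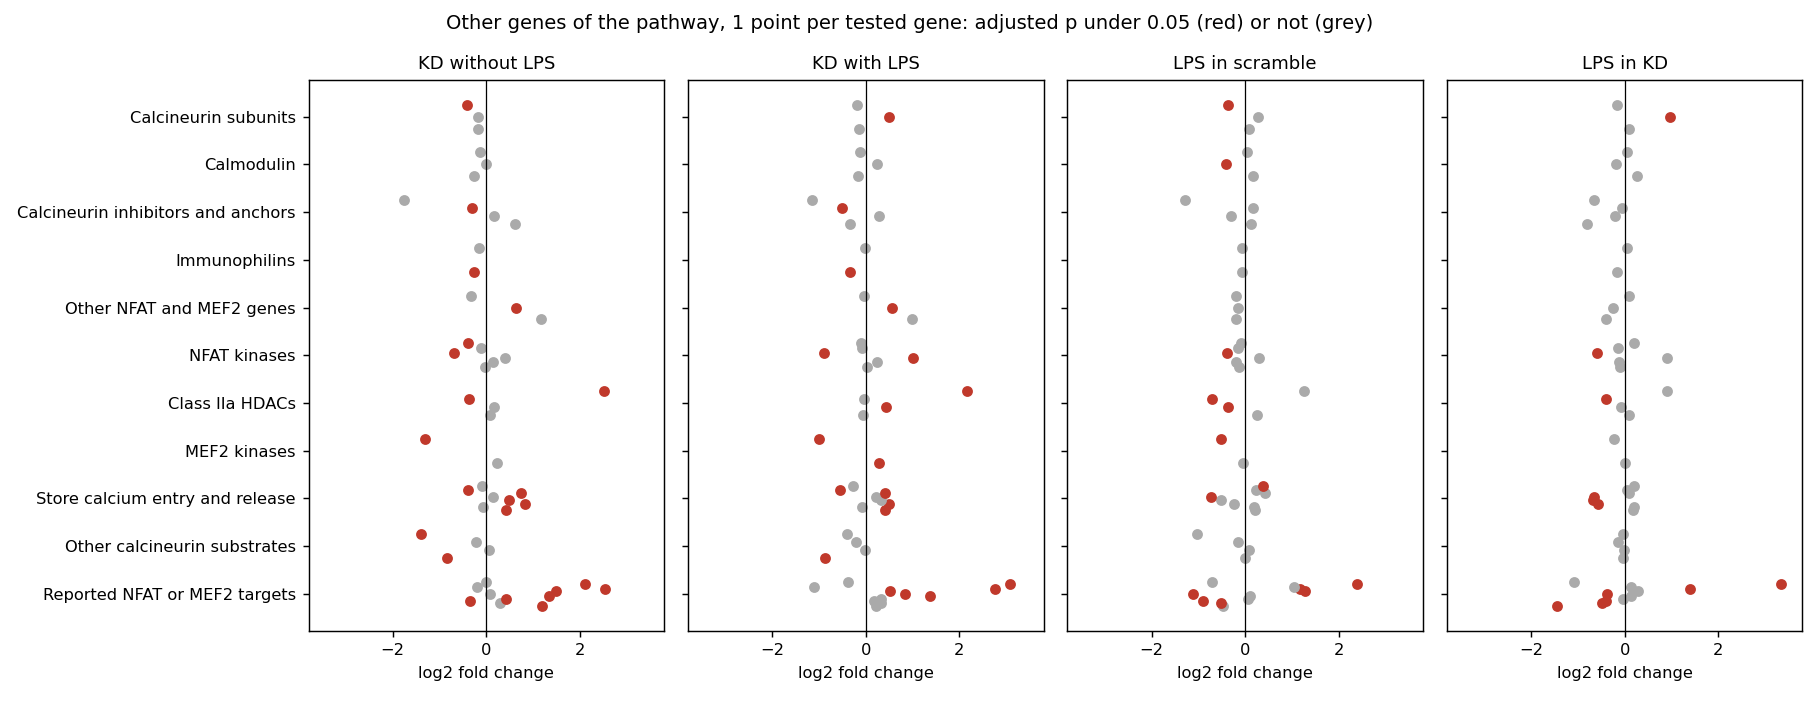
Fitted log2 fold change (horizontal axis) of the 50 tested genes of the wider pathway, 1 point per gene, by functional group (vertical axis) in 4 comparisons. Red points passed an edgeR adjusted p under 0.05, and the reported targets PTGS2 and NR4A3 lie farthest to the right in KD with LPS.

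The 3 genes with the pattern most like RCAN1 over the 12 libraries were EVA1A, PRDM1 and RASA2, by root mean square (RMS) difference of log2 CPM centred on each gene's mean, among 11810 genes with at least 50 counts per library on average. Their RMS differences were 0.17, 0.20 and 0.20. EVA1A, an autophagy-related membrane protein gene, had group means of 36.7, 31.1, 61.6 and 115 CPM in scramble, scramble with LPS, KD and KD with LPS. PRDM1, which encodes the repressor Blimp-1, had 65.4, 71.9, 99.0 and 172 CPM, and RASA2, a Ras GTPase-activating protein gene, had 27.4, 32.8, 42.9 and 78.8 CPM. Of these, EVA1A shared with RCAN1 the lower mean in scramble with LPS than in scramble, and the other two had the reverse.

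MEF2A was matched most closely by AGO2 (RMS difference 0.11), ANKRD13A (0.12) and KAT5 (0.14). AGO2, the argonaute protein that carries small RNAs, had group means of 90.1, 64.3, 81.2 and 87.2 CPM in the same order of groups. ANKRD13A, a ubiquitin-binding protein gene, had 75.1, 56.6, 62.9 and 75.3 CPM, and KAT5, the TIP60 acetyltransferase, had 25.5, 18.6, 21.5 and 24.5 CPM. All 3 were lowest in scramble with LPS, as MEF2A was. These likenesses are descriptions over 12 libraries that share a design.

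**Figure D5:**
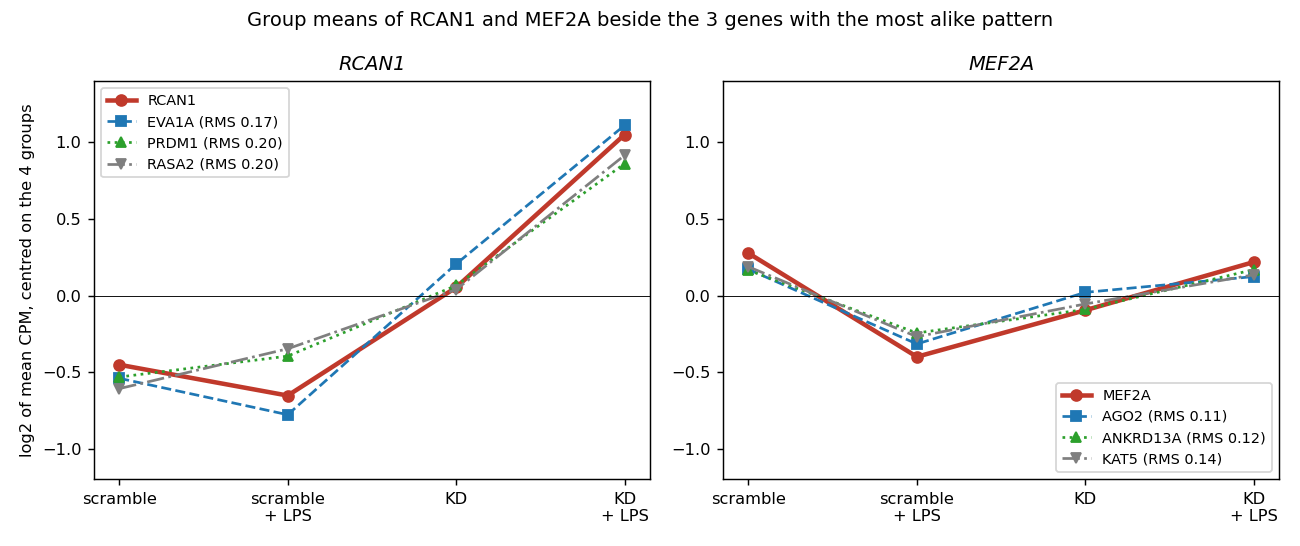
Group means of RCAN1 (left) and MEF2A (right) beside the 3 genes most like each, as log2 CPM centred on the 4 groups (vertical axis). RCAN1 and its neighbours peak in KD with LPS, and MEF2A and its neighbours are lowest in scramble with LPS.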

How the data were processed

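PolyA RNA from 12 cultures of ASC52telo adipocytes (4 groups of 3) was sequenced after Illumina stranded library preparation. The authors deposited estimated counts per gene, made with kallisto 0.44.0 on GRCh38 per the labels, whose processing notes also name bcl2fastq 2.19 and DESeq2 1.32.0. Whether counting used strand is not given in the sources used here. The deposited table held 28901 named genes and 1 row without a name (0.235% to 0.306% of counts), which was left out.

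Counts were rounded to whole numbers and scaled by TMM in edgeR 4.0.16 (R 4.3.3). A gene entered a fit where its counts summed to 10 or more. Each comparison was fitted on its 6 libraries, and the difference between LPS effects on all 12, with the quasi-likelihood test and Benjamini-Hochberg adjustment over all genes tested. Calls had an adjusted p under 0.05. The standard error is the log2 fold change divided by the root of F. CPM are TMM-scaled, and CPM per kb use the canonical transcript of GENCODE release 44. DESeq2 1.42.0, other scalings and filters, a replicate block and leaving out each library were alternatives.

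On simulated counts for KD without LPS (15762 genes, 200 changed by 1 log2 unit), edgeR recovered 82.5%, with 5.71% false calls. For the difference between LPS effects (16761 genes) it recovered 69.5%, with 10.3% false calls. DESeq2 recovered 84.5% with 17.2% false calls for KD without LPS, and 73% with 17% false calls for the difference. DESeq2 thus had the higher shares of false calls in both simulations. The share of false calls among genes called by DESeq2 alone in the data was not measured.

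The members, lists and tests were chosen with earlier results of these data known. All 10 members are named. Of the 52 pathway genes, those called for the difference or at least 2-fold in a called comparison are named by rule. For RCAN1 and MEF2A the 3 most alike genes are named. Other genes of the list, MEF2D among them, are named outside this rule, after their values were seen. RefSeq start windows matched 9 of the 10 genes. A planned comparison of protein sequences was not made, and the level of linc-ADAIN was not analysed here.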

Additional observations from a re-analysis of the deposited data

Results flagged for a closer look

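Each of the following differed in its LPS response between KD and scramble. Of the wider pathway list, 4 genes passed the edgeR test of the difference between the LPS effects: KLF6 (0.76 on the log2 scale, adjusted p = 0.0015), NR4A1 (-0.98, adjusted p = 0.0100), PPP3CC (0.70, adjusted p = 0.011) and PTGS2 (0.96, adjusted p = 0.034). Leaving out 1 library at a time kept the calls of KLF6, NR4A1 and PPP3CC, while that of PTGS2 was lost in 8 of 12 such fits. MEF2A was lower with LPS in every scramble library and higher with LPS in every KD library, and its LPS effects differed by 1.00 on the log2 scale. The MEF2A difference was not tested, since the gene was chosen for it.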

How the results depend on the processing

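Of 90 tested log2 fold changes of named genes, 59 kept their direction and their side of the threshold under all alternatives run. The 10 untested values of RCAN1 and MEF2A kept their direction. The number of tested members called was 4 in KD with and without LPS and 3 to 5 under single alternatives, not always of the same genes. In the LPS comparison in KD, 1 member, NFATC2, was called with no filter beyond 1 count (adjusted p = 0.027) and with a replicate block (adjusted p = 0.0042). Genes called for the difference between LPS effects numbered 219, against 475 with DESeq2 and 431 with no filter beyond 1 count, and 92 to 243 with 1 library left out, lowest without scramble replicate 2 and also low without KD replicate 1 (131) or replicate 2 (136) or 3 (116) of KD with LPS. For LPS in scramble, 2274 genes were called and 1187 to 2106 with 1 library left out, with 1187 without scramble replicate 2 and 1461 without replicate 3 of scramble with LPS. The causes were not tested.

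Scaling by library totals alone moved the median log2 fold change of all genes from 0.024 to 0.13 in KD without LPS and from 0.025 to 0.11 with LPS, and the share of calls that were higher from 44.5% to 61.4% and from 47.2% to 59.2%, and for LPS in KD from 46.9% to 35.2%. With that upward shift in the KD comparisons, this scaling called NFATC3 in KD without LPS (0.30) and NFATC1 in KD with LPS (0.52). It also lost PPP3CA in KD without LPS (-0.25). It turned the sign of NFATC3 in KD with LPS (0.046) and of PPP3CA with LPS in KD (-0.0067), neither of them called. The PTGS2 difference was not called with filterByExpr (adjusted p = 0.054).

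The labels give same-numbered libraries only a number in common. The correlation of their deviations was -0.093 to 0.22 and at most 0.1 in 8 of 12 pairs, against -0.16 to 0.16 for other pairs. Since these ranges overlap, the values cannot settle whether the libraries were paired. A replicate block called 3857 genes in KD without LPS against 4411, 4636 in KD with LPS against 4292, 3260 for LPS in scramble against 2274, 2238 for LPS in KD against 1835 and 231 for the difference. In the comparisons of the 4 groups not every library correlated best with its own number. With the block, NFATC1 was called in KD with LPS (adjusted p = 0.022) and KLF2 was not (0.078). It also called EGR2 (0.036), PPP3CC (0.041) and TFEB (0.038) for LPS in scramble and NR4A1 (0.030) and HDAC9 (0.0081) for LPS in KD. The uncalled values of KLF2 (-0.043) and TFEB (0.016) with LPS in KD and of KLF2 for the difference (-0.095) changed sign.

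Signs of uncalled values also turned with 1 library left out. In KD with LPS the values were -0.10 to 0.039 for NFATC3 and -0.66 to 0.038 for TFEB. For LPS in scramble they were -0.53 to 0.032 for RCAN3, -0.28 to 0.30 for NFATC2 and -0.031 to 0.28 for KLF2. For LPS in KD they were -0.084 to 0.045 for RCAN3, -0.022 to 0.19 for NFATC4, -0.032 to 0.31 for MEF2C, -0.61 to 0.49 for KLF2 and -0.29 to 0.37 for TFEB. For the difference they were -0.045 to 0.51 for RCAN3, -0.072 to 0.23 for NFATC1, -0.089 to 0.13 for NFATC4, -0.20 to 0.15 for MEF2C and -0.70 to 0.38 for KLF2. RCAN2, at 0 to 18 counts per library, is too low for a fold change.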
